A study of Mus musculus with 8 samples.

Results

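The 10 immediate early transcription factor genes described here are the AP-1 genes Fos, Fosb, Fosl1, Fosl2, Jun, Junb and Atf3 and the zinc finger genes Egr1, Egr2 and Egr3, measured in 8 mouse tumours by bulk RNA sequencing. They were chosen by name, as 10 of the 35275 genes in the deposited count table, and all 10 had enough counts to be tested. The tumours came from mice with floxed Nf2 and Cdkn2a (Nf2 f/f; Cdkn2a f/f) in which Cre recombinase was delivered by injecting an adenovirus into the peritoneum, and the series' design describes mesothelioma formation. In 4 peritoneal primary tumours (13, 14A, 59 and 61) Pak2 was also floxed (Pak2 f/f) and is labelled Pak2 -/-. A secondary tumour, 14B, has the same genotype label. In 3 peritoneal primary tumours (19, 20 and 127) Pak2 was wild-type (Pak2 wt, +/+). All 8 are thus labelled Nf2 -/- and Cdkn2a -/-. The cells that the adenovirus reached and the ages of the mice were not given in the sources used here. No label says whether different tumours are from different mice. The p-values therefore measure the spread between these samples, which may be technical in part.

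AP-1 factors are dimers of Fos and Jun proteins, which bind DNA through basic leucine zippers. Fos, Fosb, Jun, Junb and the Egr genes are immediate early genes, switched on within minutes of growth factor or stress signals without new protein synthesis. ERK signalling acts on their promoters through serum response factor (SRF) with its Elk partners, and JNK acts through Jun and ATF factors. Fosl1 and Fosl2 encode the Fos-related antigens Fra-1 and Fra-2, which lack the strong activation domain of Fos and Fosb and are more stable after sustained ERK signalling. Egr proteins are held back by the co-repressors Nab1 and Nab2, and Nab2 is itself an Egr target. PAK kinases, the family of the Pak2 product, can act on the kinase cascade upstream of ERK.

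Coordinates are those of the deposited table (GRCm38). Egr1 (ENSMUSG00000038418) lies on chromosome 18 from 34859823 to 34864984 on the plus strand, Egr2 (ENSMUSG00000037868) on chromosome 10 from 67535475 to 67542188 and Egr3 (ENSMUSG00000033730) on chromosome 14 from 70077445 to 70080157. Fos (ENSMUSG00000021250) lies on chromosome 12 from 85473890 to 85477273, Fosb (ENSMUSG00000003545) on chromosome 7 from 19302721 to 19310045, Fosl1 (ENSMUSG00000024912) on chromosome 19 from 5447703 to 5455945 and Fosl2 (ENSMUSG00000029135) on chromosome 5 from 32136472 to 32157831. Jun (ENSMUSG00000052684) lies on chromosome 4 from 95049034 to 95052222, Junb (ENSMUSG00000052837) on chromosome 8 from 84976909 to 84978748 and Atf3 (ENSMUSG00000026628) on chromosome 1 from 191170296 to 191183340. No member overlaps another member, so the 10 counts are separate measurements. In the GENCODE M21 annotation the Fosl1 span overlaps Ccdc85b on the opposite strand and the Jun span overlaps the antisense RNA gene Junos. How the counting treated strand was not given in the sources used here, so reads of these pairs cannot be told apart.

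Total counts ran from 13469851 to 20402401 per tumour, and values are given as CPM, the counts scaled to a common library total with TMM factors. Pak2, the targeted gene, stood at 186, 238, 165 and 131 CPM in labelled Pak2-null primary tumours 13, 14A, 59 and 61, at 239 (tumour 14B), and at 128, 90.1 and 92.7 CPM in wild-type tumours 19, 20 and 127. Its level was not lower in the labelled Pak2-null tumours, and all 5 of these were above every wild-type tumour. The log2 fold change between the primary groups was 0.82 (SE 0.28, adjusted p = 0.267 in the edgeR quasi-likelihood test). The Pak2 counts cover the whole gene, so they do not show whether the floxed exons are gone. The tumours are called here by their label. Nf2 averaged 99.97 ± 20.2 CPM in labelled Pak2-null primary tumours and 119 ± 20.0 CPM in wild-type tumours, and Cdkn2a 4.87 ± 0.749 and 2.84 ± 0.409 CPM (SD, n = 4 and 3). Xist was at 151, 459 and 26.6 CPM in wild-type tumours 19, 20 and 127 and at most 1.33 CPM in the other 5, and the Y-linked Ddx3y at 85.4 to 104 CPM in labelled Pak2-null primary tumours, 84.2 (tumour 14B), and 1.62, 1.24 and 116 CPM in wild-type tumours 19, 20 and 127. Sex thus differed along with the groups in wild-type tumours 19 and 20, and its part in the results was not tested. Wild-type tumour 127 held both Xist and Ddx3y transcripts, so its sex was not read from them, and the reason was not tested. The 8 mesothelial markers summed to 10.3 to 358 CPM in the labelled Pak2-null primary tumours and 35.3 to 299.5 CPM in wild-type tumours, with none at 0 counts in any tumour. In tumour 13, however, Krt8 was at 0.0619 CPM and Krt18, Lrrn4 and Upk3b were each at 0.124 CPM. These values are below 3 counts (0.186 CPM there), so they cannot be told from absence.

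Egr3 and Egr2 were the members that separated the labelled Pak2-null primary tumours from the wild-type ones. Egr3, which encodes an Egr factor that restrains T cell activation and guides muscle spindle development, stood at 41.7, 10.6, 25.7 and 29.3 CPM in labelled Pak2-null tumours 13, 14A, 59 and 61, against 5.24, 8.44 and 6.87 CPM in wild-type tumours 19, 20 and 127. Every labelled Pak2-null primary tumour was above every wild-type one, with 14A the closest to them. The means were 26.8 ± 12.8 CPM (SD, n = 4) and 6.85 ± 1.60 CPM (SD, n = 3), a log2 fold change of 1.99 (SE 0.49), which did not pass the edgeR quasi-likelihood test (Benjamini-Hochberg adjusted p = 0.138, unadjusted p = 0.00425). Egr2, known as Krox20 and needed for peripheral nerve myelination and hindbrain patterning, stood at 20.1, 19.0, 23.8 and 39.6 CPM in labelled Pak2-null tumours 13, 14A, 59 and 61, against 10.3, 12.2 and 6.80 CPM in wild-type tumours 19, 20 and 127. The groups again did not overlap, and tumour 61 was the highest. The means were 25.6 ± 9.56 CPM (SD, n = 4) and 9.75 ± 2.72 CPM (SD, n = 3), a log2 fold change of 1.41 (SE 0.37), also short of the edgeR quasi-likelihood threshold (adjusted p = 0.154, unadjusted p = 0.00606).

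The secondary tumour did not share the higher level. In tumour 14B Egr3 was at 6.53 CPM and Egr2 at 11.7 CPM, both inside the wild-type range, so that with 14B counted in the group 0 members had groups that did not overlap. Egr1, the most studied factor of the family and a common readout of ERK signalling, stood at 23.2, 58.5, 82.9 and 64.7 CPM in labelled Pak2-null tumours 13, 14A, 59 and 61, at 41.8 (tumour 14B), and at 38.5, 73.8 and 88.8 CPM in wild-type tumours 19, 20 and 127. These groups overlapped throughout, with tumour 13 the lowest and tumour 127 the highest of all. Its log2 fold change was -0.21 (SE 0.46), with an adjusted p of 0.879 in the edgeR quasi-likelihood test.

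**Figure D1:**
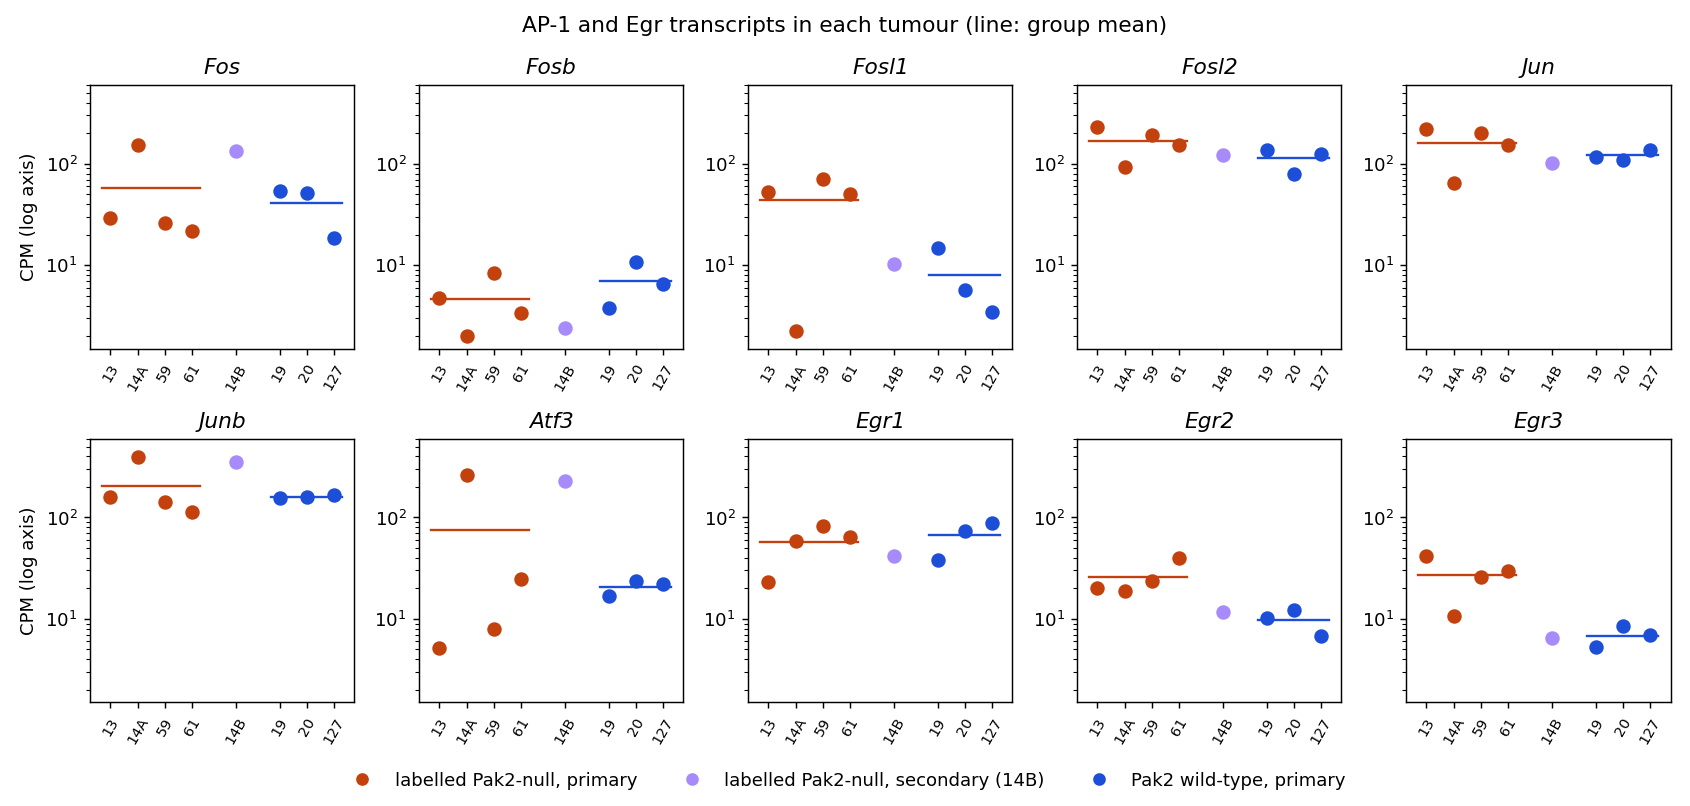
CPM (log axis) of each gene in each tumour, with labelled Pak2-null primary tumours on the left, secondary tumour 14B next and wild-type tumours on the right; lines are means of the 4 and the 3 primary tumours. Egr2 and Egr3 are above the wild-type range in all 4 labelled Pak2-null primary tumours and inside it in 14B, and Fos, Junb and Atf3 are highest in 14A and 14B.

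The promoter of Egr2 is shown because SRF sites are the route from ERK and actin signals to this gene. RefSeq (GRCm38.p6) gives 5 starts for Egr2, and the 250 bases before each were searched on both strands for the CArG box, the core letters bound by SRF. The window before the first start, near the beginning of the deposited gene span, held none. The window before the next start held a CArG box 72 bases before it, and the windows before the other 3, which overlap, held 1 and the same CArG box, 72 to 133 bases before them. Of all 32851 RefSeq windows of this kind, 1.47% held one. Capitals mark the CArG box in the first sequence and, in the second, the other CArG box followed by TGACGT, the core of the cyclic AMP response element, read on the other strand. The first is chr10:67537316-67537565 and the second chr10:67537619-67537868, both on the plus strand.
Egr2 window 2: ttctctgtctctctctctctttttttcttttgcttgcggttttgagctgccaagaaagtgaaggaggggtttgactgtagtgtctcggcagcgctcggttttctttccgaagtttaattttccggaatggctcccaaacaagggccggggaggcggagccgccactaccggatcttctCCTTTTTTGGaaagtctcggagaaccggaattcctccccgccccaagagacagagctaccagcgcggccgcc
Egr2 window 3: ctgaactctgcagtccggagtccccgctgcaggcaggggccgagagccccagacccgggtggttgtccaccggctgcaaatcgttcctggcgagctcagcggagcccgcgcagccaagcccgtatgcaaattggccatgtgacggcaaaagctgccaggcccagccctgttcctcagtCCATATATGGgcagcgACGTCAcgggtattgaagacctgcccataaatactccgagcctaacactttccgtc

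Fosl1, the Fra-1 gene, had the largest spread of the 10 genes on the log2 scale. It stood at 52.6, 2.26, 70.4 and 49.96 CPM in labelled Pak2-null tumours 13, 14A, 59 and 61, at 10.3 (tumour 14B), and at 14.7, 5.65 and 3.47 CPM in wild-type tumours 19, 20 and 127. Tumours 13, 59 and 61 were thus above every wild-type tumour and 14A was below every one. The means were 43.8 ± 29.2 CPM (SD, n = 4) and 7.94 ± 5.96 CPM (SD, n = 3), a log2 fold change of 2.48 (SE 1.05) with an adjusted p of 0.383 in the edgeR quasi-likelihood test (unadjusted p = 0.0487). The overlapping gene Ccdc85b had a similar order, at 60.8, 30.1, 62.3 and 63.4 CPM in labelled Pak2-null tumours 13, 14A, 59 and 61, at 36.8 (tumour 14B), and at 41.8, 47.7 and 30.7 CPM in wild-type tumours 19, 20 and 127. Like Fosl1 it was above the wild-type range in 13, 59 and 61 and below it in 14A, and whether reads of one gene were counted for the other was not tested. Fosl2, the Fra-2 gene, stood at 229, 92.4, 193 and 153 CPM in labelled Pak2-null tumours 13, 14A, 59 and 61, at 121.5 (tumour 14B), and at 137, 79.0 and 124 CPM in wild-type tumours 19, 20 and 127. Here too 13, 59 and 61 were above the wild-type range, while 14A lay inside it, and the log2 fold change was 0.58 (SE 0.37).

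Fos itself had another order. It stood at 29.4, 154.7, 26.0 and 21.6 CPM in labelled Pak2-null tumours 13, 14A, 59 and 61, at 133.5 (tumour 14B), and at 54.0, 51.7 and 18.6 CPM in wild-type tumours 19, 20 and 127. Tumours 14A and 14B were far above the other 6, and 13, 59 and 61 lay inside the wild-type range. The means were 57.9 ± 64.6 CPM (SD, n = 4) and 41.4 ± 19.8 CPM (SD, n = 3), with a log2 fold change of 0.50 (SE 0.795) that became -0.67 without tumour 14A. Fosb, whose protein also carries an activation domain, was at 4.77, 2.00, 8.33 and 3.35 CPM in labelled Pak2-null tumours 13, 14A, 59 and 61, at 2.38 (tumour 14B), and at 3.802, 10.7 and 6.61 CPM in wild-type tumours 19, 20 and 127. Tumours 14A and 14B were the lowest for this gene, and its log2 fold change was -0.58 (SE 0.59). Adjusted p values in the edgeR quasi-likelihood test were 0.827 for Fos, 0.718 for Fosb and 0.560 for Fosl2.

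Of the Jun genes, Jun was highest in tumours 13, 59 and 61, as were Fosl1 and Fosl2, and Junb was highest in 14A and 14B, as was Fos. Jun, the main partner of Fos proteins and a JNK substrate, stood at 220, 64.4, 201 and 152 CPM in labelled Pak2-null tumours 13, 14A, 59 and 61, at 102.6 (tumour 14B), and at 118, 109.7 and 138 CPM in wild-type tumours 19, 20 and 127. Tumours 13, 59 and 61 were above the wild-type tumours, and 14A and 14B were below all others. Junb, which often opposes Jun in cell division, stood at 160.0, 392, 143 and 114 CPM in labelled Pak2-null tumours 13, 14A, 59 and 61, at 356 (tumour 14B), and at 157, 159 and 167 CPM in wild-type tumours 19, 20 and 127. The wild-type tumours lay close together, at 161 ± 5.37 CPM (SD, n = 3), and 14A and 14B were the only tumours above their range. Log2 fold changes were 0.41 (SE 0.415) for Jun and 0.35 (SE 0.45) for Junb, with adjusted p of 0.716 and 0.782 in the edgeR quasi-likelihood test. The antisense RNA Junos was at most 4.75 CPM, in tumour 59.

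Atf3, a stress-induced factor that pairs with Jun proteins and often represses, separated the tumours most after Fosl1. It stood at 5.20, 262.5, 7.96 and 24.7 CPM in labelled Pak2-null tumours 13, 14A, 59 and 61, at 228 (tumour 14B), and at 16.7, 23.5 and 22.3 CPM in wild-type tumours 19, 20 and 127. Tumours 14A and 14B were far above all others, 13 and 59 were below the wild-type range, and 61 was just above it. Its log2 fold change was 1.87 (SE 1.35, adjusted p = 0.605 in the edgeR quasi-likelihood test), and -0.71 without tumour 14A. Over the 7 primary tumours the SD of log2 CPM was 2.02 for Fosl1 and 1.79 for Atf3, higher than for 92.9% and 90.3% of the genes tested. For the other 8 members it was 0.55 to 1.16, at percentiles of 46.3 to 77.1.

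**Figure D2:**
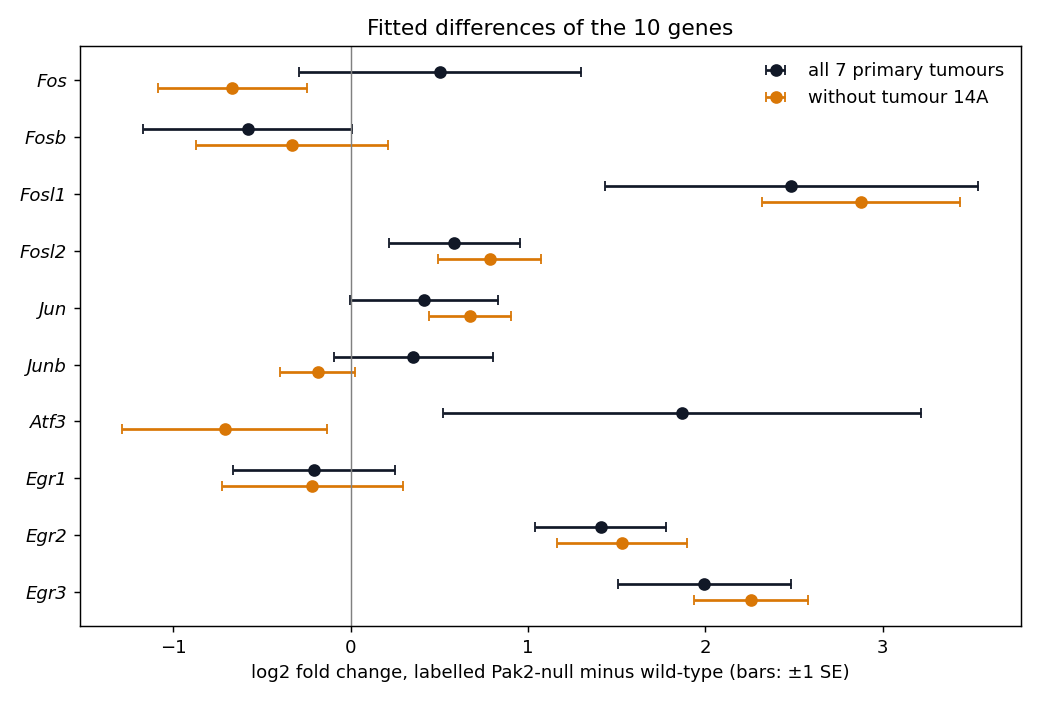
Log2 fold change, labelled Pak2-null minus wild-type, of each gene with bars of 1 SE, fitted on all 7 primary tumours (dark) and without tumour 14A (orange). Fos, Junb and Atf3 move to the other side of 0 without 14A, at -0.67, -0.19 and -0.71, while Egr2 and Egr3 stay at 1.53 and 2.26.

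In all, 0 of the 10 members passed the edgeR quasi-likelihood test after adjustment over 15412 genes, of which 11 (0.0714%) passed. At an unadjusted p under 0.05 there were 3 members, Egr2, Egr3 and Fosl1, all higher in the labelled Pak2-null tumours, and 4.39% of all genes tested were higher at that level. DESeq2 called 2 members higher, Egr2 (adjusted p = 0.00693) and Egr3 (adjusted p = 0.00265), among 2.08% of genes called higher. Limma-voom with quality weights called Egr3 (adjusted p = 0.0329), with 1.58% of genes called higher, and gave Egr2 an adjusted p of 0.0524. Groups did not overlap, in the lower direction, for 0 members and for 1376 of the 15412 genes tested. In the higher direction they did not overlap for 2 of the 10 members and for 5.07% of all genes. Leaving out tumour 14A made this 5 of 10, by adding Fosl1, Fosl2 and Jun, against 10.4% of all genes. The median log2 fold change was 0.54 over the 10 members and 0.06 over all genes tested, with 8 members above 0 and 2 below, against 54.5% and 45.5% of all genes. Without tumour 14A the medians were 0.24 and -0.01, with 5 members above 0 and 5 below.

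The members also divided by the tumours numbered 14. Both 14A and 14B were above the other 6 tumours in Fos, Junb and Atf3, which is 3 of 10 members against 17.8% of all genes, and below them in Fosb and Jun, 2 of 10 against 16.6%. With only 10 members these counts are near the background. Their composition also differed. The 5 exocrine pancreas markers summed to 14960 CPM in tumour 14A and 116000 in 14B, against 1.93 to 35.4 CPM in the other 6 tumours, where up to 4 of the 5 had 0 counts. The 6 macrophage markers found summed to 7829 and 7315 CPM in 14A and 14B, against 1484 to 4917 CPM elsewhere. Of these, C1qa, C1qb and Cd68 were above the other 6 tumours in both, Csf1r and Lyz2 overlapped, and Mrc1 was at 48.8 and 122 CPM, against 87.2 to 568.5 CPM. The 6 neutrophil markers summed to 263 and 234 CPM, against 19.6 to 154 CPM, and the 4 B cell markers to 477 and 165 CPM, against 2.54 to 112 CPM. The 6 fibroblast markers summed to 2430 and 4369 CPM in 14A and 14B, against 20390 to 27350 CPM elsewhere. Their part in the levels of Fos, Junb, Atf3, Fosb and Jun was not tested. Nor was their part in the Egr2 and Egr3 levels of 14A and 14B. In bulk tissue, fewer cells of a type and less RNA per cell cannot be told apart.

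**Figure D3:**
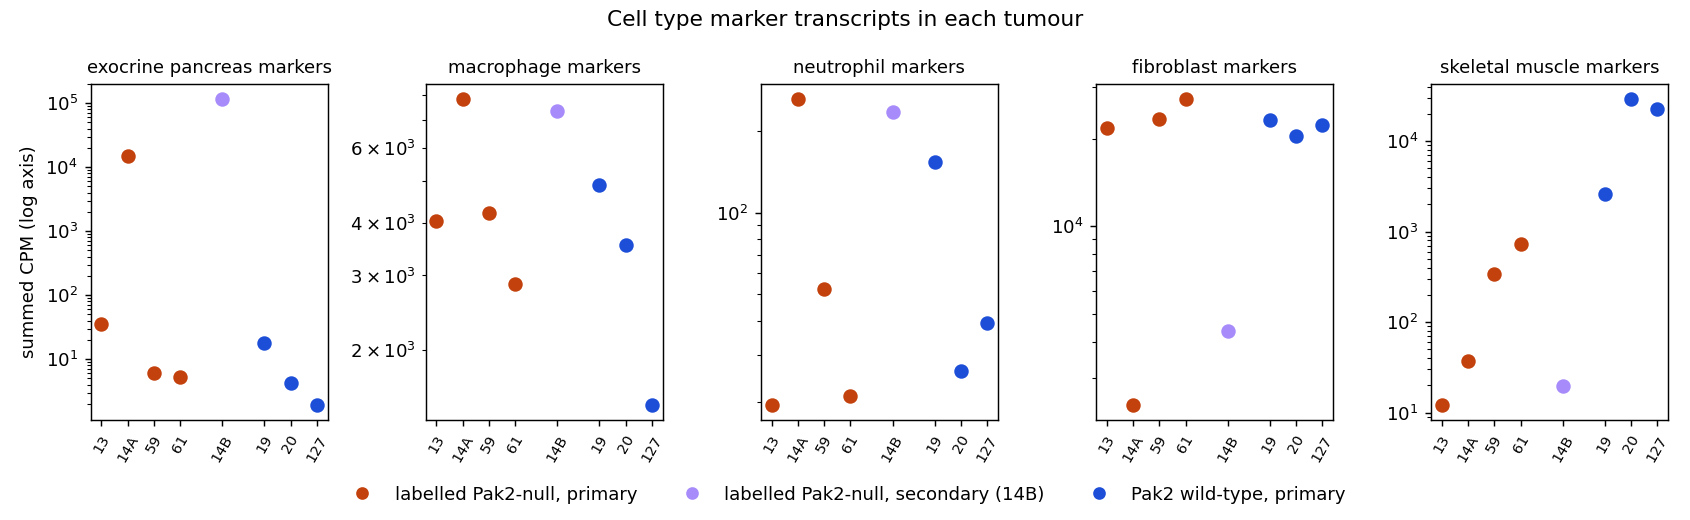
Summed CPM (log axis, a separate scale in each panel) of 5 marker lists in each tumour, with labelled Pak2-null primary tumours on the left, 14B next and wild-type tumours on the right. Pancreas and fibroblast markers set 14A and 14B apart from the other 6 tumours, and skeletal muscle markers are highest in wild-type tumours 20 and 127.

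Marker lists also moved with the labelled groups. The 10 skeletal muscle markers summed to 12.1 to 725 CPM in the labelled Pak2-null primary tumours, against 2582 to 29230 CPM in wild-type tumours, and the 6 smooth muscle markers to 210.5 to 937 CPM against 1332 to 4373 CPM. Neither range of sums overlapped, and no marker of these lists had 0 counts. Myh2, however, was below 3 counts in 13 and 14B, at 0.0619 and 0.104 CPM. By gene, groups did not overlap for 4 of the 6 smooth muscle markers (1376 of all 15412 genes in this direction). They overlapped in Acta2 and Tagln. Des alone was at 2990 and 2069 CPM in wild-type tumours 20 and 127. The part of muscle in the Egr2 and Egr3 levels was not tested. The summed T and NK cell markers overlapped between the groups (4.89 to 210.0 CPM in labelled Pak2-null primary tumours and 18.7 to 37.6 CPM in wild-type tumours), as did the B cell (2.54 to 477 and 13.4 to 112 CPM), endothelial (231 to 600.3 and 320.1 to 805 CPM) and adipocyte markers (30.8 to 344 and 152 to 1160 CPM). By gene, 7 T and NK cell markers had a log2 fold change above 0 and 0 below (median 1.90, 0.06 over all genes). For B cell markers it was 4 and 0 (median 1.42), for endothelial 1 and 5 (-0.39) and for adipocyte 0 and 5 (-2.93). The part of these cells in the Egr2 and Egr3 levels was not tested either.

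Levels between genes were compared per length, as RPKM (CPM per kilobase of the deposited gene length). Junb was the most abundant member in all 8 tumours, at 61.8 to 213 RPKM in labelled Pak2-null primary tumours, 193.5 (tumour 14B) and 85.1 to 90.7 RPKM in wild-type tumours. Fosb was the least abundant in all 8, at no more than 2.85 RPKM. Jun was second in 6 tumours, and in 14A and 14B Atf3 was second, at 132 and 115 RPKM. In labelled Pak2-null primary tumours the mean RPKM after Junb (110.0 ± 69.6, SD, n = 4) was 49.95 ± 21.8 for Jun, 37.8 ± 63.1 for Atf3, 28.5 ± 10 for Fosl2, 27.5 ± 30.7 for Fos, 25.7 ± 17.1 for Fosl1, 18.95 ± 9.06 for Egr3, 12.8 ± 5.57 for Egr1, 8.64 ± 3.22 for Egr2 and 1.23 ± 0.726 for Fosb. From Jun to Egr3, neighbours in this order differed by less than the SD of either. The place of Atf3 rested on tumour 14A, since Atf3 was at 2.62 to 12.4 RPKM in the other 3. In wild-type tumours the mean RPKM after Junb (87.4 ± 2.92, SD, n = 3) was 38.15 ± 4.53 for Jun, 19.6 ± 9.41 for Fos, 19.35 ± 5.19 for Fosl2, 14.95 ± 5.76 for Egr1, 10.5 ± 1.81 for Atf3, 4.84 ± 1.13 for Egr3, 4.65 ± 3.49 for Fosl1, 3.29 ± 0.918 for Egr2 and 1.87 ± 0.922 for Fosb. Fos, Fosl2 and Egr1, and Egr3 and Fosl1, were neighbours that differed by less than the SD of either. The deposited length of Egr3, 1416 bases, covers a shorter span than GENCODE M21 gives it (70077203 to 70082614), so its RPKM depends on that choice. Junb, at 1840 bases, also has a longer span there (84974484 to 84978718), so its first place may depend on that choice too. Fosb, Fosl1, Fosl2 and Atf3 have other spans there as well, and whether the order holds with other lengths was not tested.

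The make-up of each family shifted between tumours. Fosl1 made up 36.2%, 46.4% and 44.0% of the Fos family's RPKM in labelled Pak2-null tumours 13, 59 and 61, 1.45% in 14A and 6.63% in 14B, against 14.7%, 7.50% and 6.02% in wild-type tumours 19, 20 and 127. Fos made up 80.6% in 14A and 69.8% in 14B, 13.9% to 16.3% in tumours 13, 59 and 61, and 26.1% to 55.5% in the wild-type tumours. So 3 of the 4 labelled Pak2-null primary tumours had the largest Fosl1 shares of the series, and the fourth had the largest Fos share. In the Egr family Egr3 made up 27.8% to 71.2% in labelled Pak2-null primary tumours and 25.8% in 14B, against 18.0% to 23.5% in wild-type tumours, while Egr1 made up 12.5% to 48.4%, 52.1% and 54.5% to 73.5%. The primary groups did not overlap in either share. Shares within a family add up to the whole, so the lower Egr1 share is not a result apart from the higher Egr3 level. In CPM the groups overlapped for Egr1. How often such shares separate the groups in other gene families was not counted. With Jund, a Jun gene that is less inducible, counted in the Jun family, Junb held 80.2% in 14A and 74.3% in 14B and 37.6% to 57.4% in the other 6 tumours.

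**Figure D4:**
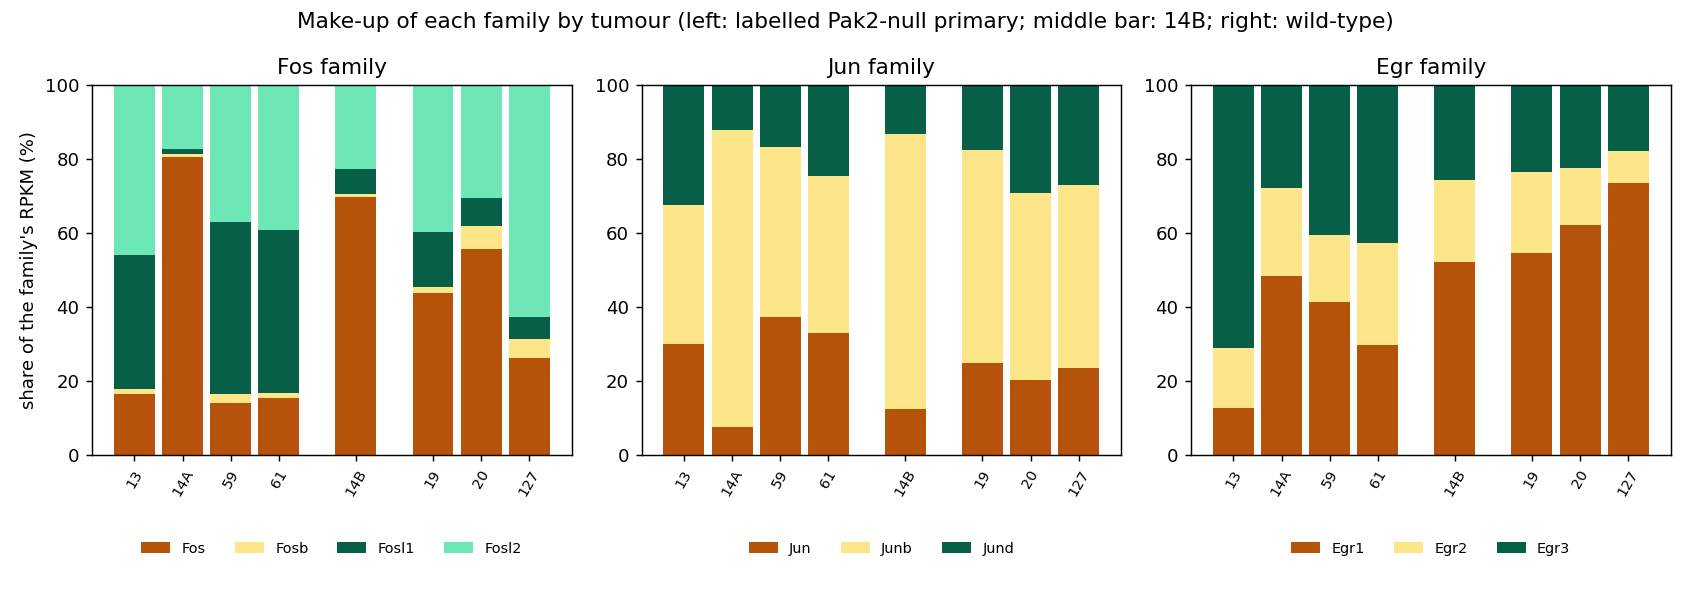
Share of each family's summed RPKM taken by each gene, in percent, with 1 bar per tumour; labelled Pak2-null primary tumours are on the left, 14B in the middle and wild-type tumours on the right. Fosl1 takes 36.2% to 46.4% of the Fos family in tumours 13, 59 and 61, and Fos takes 80.6% and 69.8% in 14A and 14B.

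Promoters of Fos, Atf3 and Jun are shown because these genes lay on opposite sides in tumours 14A and 14B. RefSeq promoters were matched for 7 of the 10 members (Egr2, Fos, Fosb, Fosl2, Jun, Junb and Atf3). Those of Egr1, Egr3 and Fosl1 were not used here. The 250 bases before the start were searched on both strands for TGACGT, for TGACNTCA and TGACTCA (AP-1 and cyclic AMP response sites, the first of which can contain TGACGT), for GCGNGGGCG (an Egr site) and for the CArG box. TGACGT was present in 6.47% of all 32851 windows, TGACNTCA in 7.49%, TGACTCA in 4.46% and GCGNGGGCG in 4.70%. Fos held TGACGT 66 bases before its start and Atf3 held it 8 bases before, on the other strand. Jun held TGACNTCA 45 bases before its start. Fosb and Fosl2 held GCGNGGGCG, 50 and 79 bases before, and none of these letters were in the Junb window. Bases further upstream were not searched, so these windows do not show that any gene, Fos included, lacks a CArG box or another site. Capitals mark the matches. The Fos sequence is chr12:85473640-85473889 (plus strand), Atf3 is chr1:191183334-191183583 (minus strand) and Jun is chr4:95052223-95052472 (minus strand).
Fos: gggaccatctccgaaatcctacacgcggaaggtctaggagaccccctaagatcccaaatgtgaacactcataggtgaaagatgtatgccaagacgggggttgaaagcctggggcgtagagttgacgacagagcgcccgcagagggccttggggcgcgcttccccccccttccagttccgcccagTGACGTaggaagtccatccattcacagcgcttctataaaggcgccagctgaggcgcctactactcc
Atf3: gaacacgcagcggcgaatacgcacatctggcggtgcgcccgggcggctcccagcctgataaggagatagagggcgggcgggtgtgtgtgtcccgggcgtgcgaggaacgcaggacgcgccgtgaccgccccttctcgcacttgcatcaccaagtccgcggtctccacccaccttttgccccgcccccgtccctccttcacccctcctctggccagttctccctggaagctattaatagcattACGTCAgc
Jun: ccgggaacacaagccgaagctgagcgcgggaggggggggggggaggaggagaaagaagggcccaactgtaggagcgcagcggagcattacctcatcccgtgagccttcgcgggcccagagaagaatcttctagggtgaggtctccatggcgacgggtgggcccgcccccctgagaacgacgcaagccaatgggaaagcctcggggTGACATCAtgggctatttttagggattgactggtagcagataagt

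Among 8 lists of related genes, 0 of 121 tested genes passed the edgeR quasi-likelihood test after adjustment over all genes. At an unadjusted p under 0.05 there were 12 higher and 3 lower, where 4.39% of all genes tested were higher and 8.55% lower at that level. Among AP-1 and Egr relatives, 17 of 18 were tested, with 1 higher and 0 lower at that level and a median log2 fold change of 0.38 (0.06 over all genes). That gene was Nab2, the Egr co-repressor, at 66.3, 61.7, 39.1 and 32.9 CPM in labelled Pak2-null tumours 13, 14A, 59 and 61, at 67.2 (tumour 14B), and at 31.9, 31.5 and 28.9 CPM in wild-type tumours 19, 20 and 127. All 5 tumours labelled Pak2-null were above the wild-type ones, and the log2 fold change was 0.73 (SE 0.30, adjusted p = 0.367 in the edgeR quasi-likelihood test). Bach1, a repressor at antioxidant genes, and Maff and Atf2, partners in AP-1-like dimers, differed by 0.70 (SE 0.315), 0.53 (SE 0.30) and 0.34 (SE 0.20) on the log2 scale, and their groups overlapped. Bach1 was at 0.415 without tumour 14A, Atf2 at 0.22 without 13, and Maff at 0.34 without 13 and 0.33 without 19.

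Of the 9 upstream transcription factors, 2 were higher and 1 lower at an unadjusted p under 0.05 (4.39% and 8.55% of all genes), with a median of 0.23. Mkl1, the actin-sensing partner of SRF, averaged 85.2 ± 17.0 CPM in labelled Pak2-null primary tumours and 47.96 ± 3.17 CPM in wild-type tumours (SD, n = 4 and 3), and Elk3, an ERK-responsive partner, 173 ± 56.9 and 89.0 ± 8.54 CPM. Srf averaged 75.7 ± 13.0 CPM in labelled Pak2-null primary tumours and 109 ± 6.60 CPM in wild-type tumours. The groups did not overlap in Mkl1, Elk3 or Srf, and 14B was on the labelled Pak2-null side of each. Of all 15412 genes tested, groups did not overlap for 782 in the higher direction and 1376 in the lower. On the log2 scale Mkl1 differed by 0.85 (SE 0.22), Elk3 by 0.98 (SE 0.32) and Srf by -0.50 (SE 0.205). The edgeR quasi-likelihood test gave them adjusted p of 0.152, 0.236 and 0.366. Crem, a cyclic AMP response factor gene, was at 0.69 (SE 0.38).

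Of 34 other immediate early genes 33 were tested, 27 with a log2 fold change above 0 and 6 below (54.5% and 45.5% of all genes), and a median of 0.585 (0.06 for all genes). At an unadjusted p under 0.05 there were 2 higher and 0 lower (4.39% and 8.55% of all genes). Klf2, a factor of endothelial and T cell quiescence, averaged 163 ± 77.0 CPM in labelled Pak2-null primary tumours and 63.4 ± 18.5 CPM in wild-type tumours. Nr4a2, an orphan nuclear receptor gene, averaged 18.98 ± 12.2 and 6.90 ± 2.09 CPM. On the log2 scale Klf2 differed by 1.39 (SE 0.425) and Nr4a2 by 1.48 (SE 0.58), and the edgeR quasi-likelihood test gave them adjusted p of 0.209 and 0.344. Ier5 and Trib1 were at 0.71 (SE 0.32) and 0.60 (SE 0.275). Groups overlapped in Nr4a2, Ier5 and Trib1 and not in Klf2. Without tumour 59 Nr4a2 was at 0.98 and Trib1 at 0.39. Tumours 14A and 14B were above the other 6 in 10 of these 33 genes and below them in 6, against 17.8% and 16.6% of all genes.

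**Figure D5:**
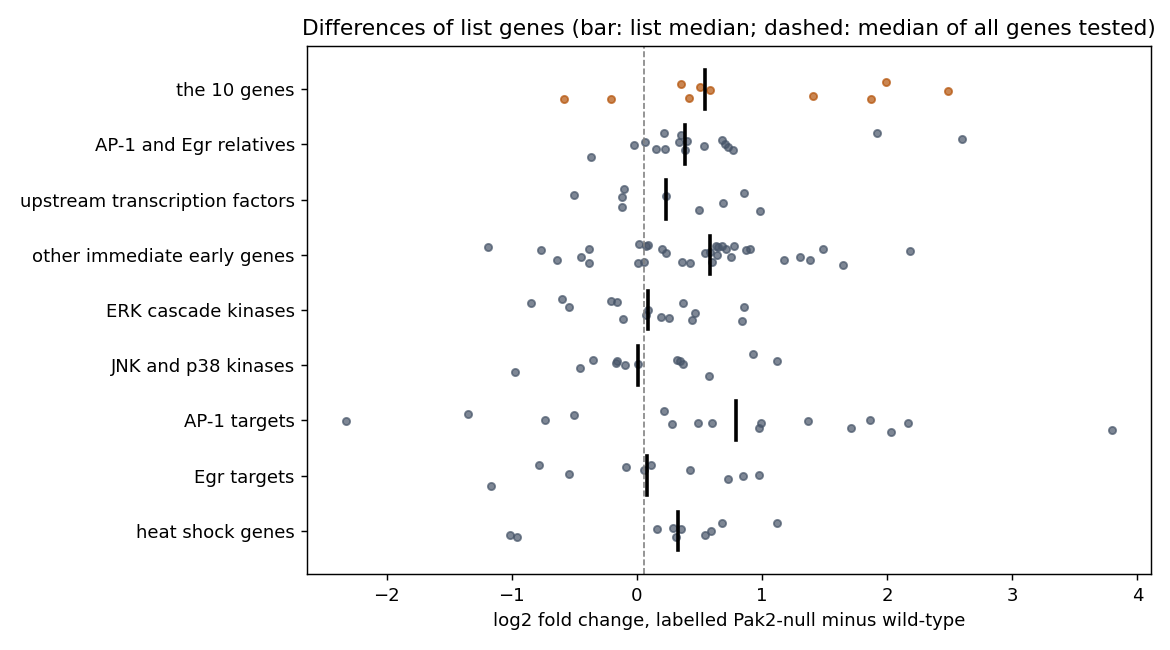
Log2 fold change, labelled Pak2-null minus wild-type, of every tested gene of the 10 members (top) and of the 8 lists, 1 point per gene with a vertical bar at the list's median; points are spread vertically for visibility. Medians run from 0.01 for JNK and p38 kinases to 0.79 for AP-1 targets, against 0.06 for all genes tested (dashed line).

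The lists of kinases that carry the signals had medians close to that of all genes, with single genes on both sides. Of 15 ERK cascade genes, 1 was higher and 1 lower at an unadjusted p under 0.05 (4.39% and 8.55% of all genes). The list's median log2 fold change was 0.09, with 9 genes above 0 and 6 below. Its groups did not overlap for 2 genes in the higher and 2 in the lower direction, against 782 and 1376 of all 15412 genes. Hras, a Ras GTPase gene, stood at 64.7, 37.5, 44.9 and 69.6 CPM in labelled Pak2-null tumours 13, 14A, 59 and 61, against 72.2, 78.3 and 98.6 CPM in wild-type tumours 19, 20 and 127. The groups did not overlap, and the log2 fold change was -0.595 (SE 0.27, adjusted p = 0.419 in the edgeR quasi-likelihood test). Of 13 tested JNK and p38 genes 1 was higher and 0 lower at that level (4.39% and 8.55% of all genes), Mapk11 at 0.93 (SE 0.34), and Mapk9, Mapk12 and Map3k11 were at 0.32 (SE 0.17), -0.97 (SE 0.70) and 0.37 (SE 0.30). Map3k11 was at 0.135 without tumour 14A and 0.16 without 127.

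Of 16 AP-1 targets, 3 were higher and 1 lower at an unadjusted p under 0.05 (4.39% and 8.55% of all genes), with a median log2 fold change of 0.79. Cd44, a hyaluronan receptor gene, stood at 810, 232, 490 and 272 CPM in labelled Pak2-null tumours 13, 14A, 59 and 61, at 318 (tumour 14B), and at 120.5, 174 and 127 CPM in wild-type tumours 19, 20 and 127. Plaur, the urokinase receptor gene, averaged 63.9 ± 27.3 CPM in labelled Pak2-null primary tumours and 25.2 ± 13.3 CPM in wild-type tumours. The groups did not overlap in Cd44 and Plaur (5.07% of all genes in this direction). Cd44 and Plaur differed by 1.71 (SE 0.50) and 1.37 (SE 0.48) on the log2 scale. The edgeR quasi-likelihood test gave them adjusted p of 0.190 and 0.280. Il11, a cytokine gene, stood at 42.3, 0.822, 20.2 and 2.20 CPM in labelled Pak2-null tumours 13, 14A, 59 and 61, and at 1.81, 0.807 and 0.963 CPM in wild-type tumours 19, 20 and 127. It was above the wild-type range in 13, 59 and 61 and within it in 14A, and 14B was at 5.60 CPM. Hmox1, the heme oxygenase gene, was at -2.33 (SE 0.97), with 887.5 CPM in wild-type tumour 19 and 44.0 to 86.7 CPM in the other 6 primary tumours, and was at 0.14 without tumour 19.

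Of 10 Egr targets 1 was higher and 0 lower at an unadjusted p under 0.05 (4.39% and 8.55% of all genes), Nab2 again, and the median was 0.08. On the log2 scale Tgfb1, a growth factor gene, differed by 0.85 (SE 0.38), F3, the tissue factor gene, by -1.17 (SE 0.67) and Sphk1, a sphingosine kinase gene, by 0.97 (SE 0.64). Of 10 heat shock genes, listed because tissue handling can induce them together with immediate early genes, 2 were higher and 0 lower at that level (4.39% and 8.55% of all genes). Hspa1b averaged 47.9 ± 13.2 CPM in labelled Pak2-null primary tumours and 22.4 ± 9.67 CPM in wild-type tumours, and Hsp90aa1 562.5 ± 115 and 356 ± 38.7 CPM. Log2 fold changes were 1.12 (SE 0.36) for Hspa1b, 0.68 (SE 0.27) for Hsp90aa1, -0.96 (SE 0.46) for Hsph1 and 0.59 (SE 0.28) for Hspd1. Hsph1 was at -0.21 without tumour 127 and Hspd1 at 0.39 without tumour 61. In tumours 14A and 14B Hspa1b was at 33.3 and 25.5 CPM, between the lowest and highest of the wild-type tumours (16.4 to 33.6 CPM). Their relation to the members' levels was not tested.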

How the data were processed

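Per the labels' protocols, RNA of tumours kept in an RNA preservative was purified and made into mRNA-enriched Illumina libraries. The authors deposited raw read counts per gene, 1 column per tumour. STAR, HTSeq and the builds GRCm38 and mm10 are named without versions, per the submitters' processing notes; strand setting and annotation release were not given in the sources used here. The table also holds gene lengths, used for RPKM, and had 0 columns of other samples and 0 entries naming no gene.

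Genes passing filterByExpr (minimum count 10, minimum total 15) were 15412 of 35275. Counts were tested with edgeR 4.0.16 (R 4.3.3; TMM, quasi-likelihood, no covariate), 4 labelled Pak2-null against 3 wild-type primary tumours, with Benjamini-Hochberg adjustment over all genes tested and a threshold of 0.05. Tumour 14B, a group of 1, did not enter the main fit and was added to the labelled Pak2-null group only in an alternative. SE is the absolute log2 fold change over the square root of F. CPM used TMM factors over all 8 tumours and library sizes summed over the tested genes. The fitting code was tested on simulated data. DESeq2 1.42.0 and limma 3.58.1 were alternatives, with other normalisations, filters and samples. Up to 3 counts, the most that a count of 0 allows, are 0.139 to 0.311 CPM; intervals for counting error are not given, since spread between tumours exceeds it.

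Named genes are the 10 members, Pak2, Nf2, Cdkn2a, and up to 4 tested genes of each of 8 lists with the lowest unadjusted p; markers came from 11 lists. Xist, Ddx3y, Ccdc85b, Junos and Jund were added after values were seen. Gene overlaps were read from GENCODE M21 and promoters from RefSeq. The members and lists were chosen with earlier results of these data known. Adgre1 was not found under this name. Some genes that the rule names are not reported here.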

Additional observations from a re-analysis of the deposited data

Results flagged for a closer look

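Among the 4 labelled Pak2-null primary tumours, tumour 14A stood far from the other 3 in 3 of the 10 members. Fos was at 154.7 CPM, Atf3 at 262.5 CPM and Junb at 392.1 CPM in this tumour. Its gap to the next tumour was 0.942, 0.924 and 0.834 of the group's range, above Dixon's critical value for a group of 4. Chance flags about 1 in 20 such groups if the values are normally distributed, which was not tested. Log values, on which high values weigh less, were not used for this flag. Secondary tumour 14B, outside this group, was at 133.5, 228 and 356 CPM.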

How the results depend on the processing

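No paired analysis was possible because the groups share no replicate numbers. Over 15 alternatives the log2 fold change stayed above 0 for Egr2 (1.13 to 1.60), Egr3 (1.69 to 2.26), Fosl1 (2.11 to 3.33), Fosl2 (0.38 to 0.93) and Jun (0.21 to 0.67), and below 0 for Fosb (-1.06 to -0.15). The count of members called was 0, except 2 by DESeq2 and 1 by limma-voom with quality weights. Adjusted p ran from 0.00693 to 0.472 for Egr2 and from 0.00265 to 0.404 for Egr3. DESeq2 gave Fos and Atf3 no adjusted p. Log2 fold changes turned round for Fos (-0.67), Junb (-0.19) and Atf3 (-0.71) without tumour 14A, for the same genes with limma-voom (-0.395, -0.14 and -0.85), and for Egr1 without tumour 13 (0.054) or 127 (0.03). Leaving out single tumours, Fos ran from -0.67 to 0.78, Junb from -0.19 to 0.55, Atf3 from -0.71 to 2.26 and Egr1 from -0.50 to 0.054. Members whose groups did not overlap numbered 2, 0 with 14B added, and 2 to 5 leaving out single tumours (5 without 14A). Genes called numbered 11, 33 with the stricter filter, 1149 by DESeq2, 950 by limma-voom, 191 with 14B added (which counts 14A and 14B, both numbered 14, as separate samples) and 0 to 59 leaving out single tumours (59 without 19, 1 without 127, 0 without 13, 20, 59 or 61). Of the 121 list genes DESeq2 called 6 (among them Il11, Cd44, Hsp90aa1, Mkl1 and Klf2), beside 1149 of all 14894 genes given an adjusted p. Limma-voom called 3 of them (among them Cd44 and Myc), beside 950 of all 15412 genes. The cause of these differences was not tested. TPM in place of RPKM, with the same gene lengths, left Junb first in 8 of 8 tumours. With 3 and 4 tumours, only large differences can pass over all genes.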
